A study of Mus musculus with 2 samples.

Results

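The 7 genes described here encode high mobility group (HMG) chromatin proteins of 3 families: Hmgb1, Hmgb2 and Hmgb3, then Hmgn1, Hmgn2 and Hmgn3, and finally Hmga1. They are 7 of the 28206 features counted in the series, and all 7 were found in both count tables. They were taken by name, and the family was chosen by its levels and shares across the cell sets below, as earlier results of these same cells showed them, so the differences between cell sets are given as descriptions, with counting intervals and with no test. The cells came from mouse bone marrow. GFP+ long-term hematopoietic stem cells (LT-HSCs) of Mds1-GFP/+ Flt3-Cre mice, which carry a loxP-IRES-GFP-polyA-loxP reporter and a Cre recombinase under Flt3 control that removes it, were sorted as DAPI-GFP+ from lineage-depleted marrow. They were mixed with LT-HSCs of wild type mice sorted as DAPI-Lin-cKit+Sca+CD48-CD150+, the SLAM surface phenotype, because the reporter cells are rare. The pool was split into 2 aliquots, each encapsulated by inDrops droplet microfluidics and sequenced as a library of its own. The aliquots are technical samples of 1 pool, so no p-value is given, and the labels state neither age nor the number of mice.

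HMGB proteins carry paired HMG boxes that bind the minor groove and bend DNA, and they loosen nucleosomes for transcription factors and repair enzymes. Hmgb1 is also released from dying or activated cells as an alarm signal, Hmgb2 is known for its link to proliferation and chromosome condensation, and Hmgb3 is known in blood for its expression in primitive progenitors. HMGN proteins bind directly to the nucleosome core particle and counteract linker histone H1, and HMGA proteins bind AT-rich DNA through AT hooks.

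The upstream sequences of the HMGB genes are shown because all 3 were higher in G2/M cells than in cells without cycle transcripts, with ratios from 2.19 to 9.53. Hmgn2 at 3.07 and Hmgn1 at 1.80 were higher too, and their windows are described below without being printed. Whether any motif bears on these ratios was not tested. The sequences are RefSeq's windows before the annotated start on GRCm38.p6, trimmed of annotated exons, 5′ to 3′ on the gene's strand. Capitals mark CCAAT boxes, the motif read by NF-Y, and the CHR word TTTGAA or its complement TTCAAA, the motif read by the DREAM and MMB complexes at G2/M genes. Each word was searched on both strands.
Hmgb2, chr8:57511593-57511842, plus strand: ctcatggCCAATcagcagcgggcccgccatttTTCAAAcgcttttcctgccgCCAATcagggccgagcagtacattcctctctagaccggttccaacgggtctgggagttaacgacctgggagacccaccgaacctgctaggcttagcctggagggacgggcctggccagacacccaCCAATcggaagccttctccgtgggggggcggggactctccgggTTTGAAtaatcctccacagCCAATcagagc
Hmgb3, chrX:71555667-71555916, plus strand: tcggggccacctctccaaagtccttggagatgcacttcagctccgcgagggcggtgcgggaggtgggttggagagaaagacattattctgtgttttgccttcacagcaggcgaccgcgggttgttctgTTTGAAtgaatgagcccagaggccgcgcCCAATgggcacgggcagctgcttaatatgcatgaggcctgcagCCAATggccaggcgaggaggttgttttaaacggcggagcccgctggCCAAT
Hmgb1, chr5:149053058-149053260, minus strand: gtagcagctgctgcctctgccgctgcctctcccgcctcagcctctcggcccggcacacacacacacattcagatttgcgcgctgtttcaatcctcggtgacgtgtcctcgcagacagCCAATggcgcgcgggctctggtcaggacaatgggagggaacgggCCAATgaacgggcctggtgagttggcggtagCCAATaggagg

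The Hmgb2 window held 4 CCAAT boxes, the farthest 243 bases and the nearest 11 bases before the start, and 2 CHR words, TTCAAA at 218 and TTTGAA at 30 bases. The Hmgb3 window held 3 CCAAT boxes between 94 and 5 bases before the start and 1 TTTGAA at 122 bases. The Hmgb1 window held 3 CCAAT boxes between 86 and 11 bases before the start and no CHR word, and the window of a further RefSeq start of Hmgb1 held neither motif. Of the other members, the Hmgn1 window held 2 CCAAT boxes at 81 and 21 bases and no CHR word, and the Hmgn2 window held none of these words. None of these windows held an E2F word, searched as TTTGGCGC, TTTCCCGC, TTTGCCGC and TTTCGCGC. Over all 32851 RefSeq windows, each the 250 bases before a start, 33.8% held a CCAAT box, 16.0% a CHR word and 1.86% an E2F word. A match describes letters only and is not evidence of a bound site. Positions count from RefSeq's start and would differ from another start. The Hmgb2 window ends at 57511842, while GENCODE starts the gene downstream, at 57511907. For Hmgb2 and the printed Hmgb1 window, a stretch of bases after RefSeq's start was found in no GENCODE transcript of the gene. The stretch after the further Hmgb1 start, whose window held neither motif, was found in a GENCODE transcript of Hmgb1. Both Hmga1 windows lie in annotated exons and were not printed.

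The tables held 10809 barcodes, and 3402 were kept as cells, 1574 in aliquot 1 and 1828 in aliquot 2, by a minimum of 500 unique molecular identifiers (UMIs, each standing for 1 captured transcript) and at most 20% mitochondrial UMIs. The median kept cell had 946.5 UMIs in aliquot 1 and 2071.5 in aliquot 2. Of the barcode names, 461 occurred in both aliquots and 55 were kept in both. The LT-HSC label was checked on 16 marker transcripts: Hlf had a UMI in 53.3% of kept cells, Mecom in 14.9% and Procr in 15.9%, while Slamf1, which encodes the sorted CD150, had a UMI in 2.70%. Among markers of other cells, 116 kept cells held 5 or more UMIs of a granulocyte list, and single markers were more widely seen, with a UMI of Lyz2 in 32.6% of kept cells, of Prtn3 in 24.4% and of the erythroid Car2 in 74.5%. In a list of multipotent and lymphoid progenitors, Cd34 had a UMI in 27.0% of kept cells, Flt3 in 4.97%, Cd48 in 1.88%, and Dntt and Il7r in 0.206% and 0.0588%. At least 1 GFP UMI was found in 71 kept cells, where the submitters' design text counts 46 GFP LT-HSCs under a filter that the labels do not state. A cell without a GFP UMI is therefore not shown to be wild type.

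Levels are given as UMIs of the gene for every 1000000 UMIs of the cell set (CPM), with exact 95% Poisson intervals that cover counting error only, and not per transcript length, so they are compared between cell sets and not between genes. Hmgb1, on chr5:149046702-149184489, was at 1114 CPM (1064 to 1166) in aliquot 1 and 895 CPM (866 to 925) in aliquot 2. Hmgb2, on chr8:57511907-57515999, was at 1354 CPM (1299 to 1412) and 898 CPM (869 to 928). Hmgb3, on chrX:71555918-71560676, was at 235 CPM (212 to 259) and 189 CPM (176 to 203). For each of these 3 genes aliquot 1 read higher, and the intervals of the aliquots did not overlap. Hmgn1, on chr16:96120618-96127729, was at 205 CPM (183 to 228) and 215 CPM (200.5 to 229). Hmgn3, on chr9:83109948-83146685, was at 104 CPM (89.2 to 121) and 88.6 CPM (79.7 to 98.3). For Hmgn1 and Hmgn3 the intervals of the aliquots overlapped. Hmgn2, on chr4:133964738-133968650, was at 32.3 CPM (24.2 to 42.3) in aliquot 1 and 50.9 CPM (44.2 to 58.4) in aliquot 2. Hmga1, on chr17:27556497-27563674, was at 25.6 CPM (18.4 to 34.6) and 72.8 CPM (64.7 to 81.6), a ratio of 2.84 (2.05 to 4.03) for aliquot 2 over aliquot 1. Both of these last genes read higher in aliquot 2. Of 10664 genes measured in both aliquots, 3.02% differed by over 2.5-fold as Hmga1 did, so pooled values of Hmga1 mostly describe aliquot 2. The coordinates are GENCODE's on GRCm38.

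After every cell was thinned to 500 UMIs, so that depth could not set the share, Hmgb1 was seen in 33.9% of the 3402 cells (32.3 to 35.5, exact binomial interval) and Hmgb2 in 25.6% (24.1 to 27.1). The unthinned shares were 61.9% and 43.4%. Thinned shares of the others were 8.26% for Hmgb3, 8.20% for Hmgn1, 4.64% for Hmgn3, 2.20% for Hmga1 and 1.70% for Hmgn2. For the last 3 genes only sums over sets of cells are used below, and some of these rest on few cells or UMIs. The minimum of 500 UMIs cut through cells of like content for Hmgb1, at 849 CPM in the 170 barcodes with 400 to 499 UMIs and 972 CPM in the 165 cells with 500 to 599 UMIs. For Hmgb2 the same sets read 822 and 707 CPM. Barcodes with under 200 UMIs read 604 CPM for Hmgb1 and 736 CPM for Hmgb2.

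Cells were divided by the transcripts of 2 lists in which no HMG gene stands, 43 genes of DNA replication (S) and 54 genes of G2 and mitosis (G2/M), read in the thinned cells. The class without cycle transcripts held 948 cells with no UMI of either list. The S class held 727 cells with 2 or more S UMIs and no G2/M UMI, and the G2/M class held 623 cells with 2 or more G2/M UMIs. The remaining 1104 cells were intermediate. A cell without cycle transcripts at this depth is not shown to be out of cycle. Median depth was 1165.5 UMIs in the class without cycle transcripts, 1432 in S and 1851 in G2/M.

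Hmgb2 had the widest range of the 7 genes across these classes. In cells without cycle transcripts it stood at 387 CPM in aliquot 1 and 273 CPM in aliquot 2. S cells held 576 and 524 CPM, and G2/M cells held 4058 and 2449 CPM. Both G2/M values lay above every value of the other classes. Between G2/M cells and cells without cycle transcripts the pooled ratio was 9.53 (8.60 to 10.6), with 10.5 in aliquot 1 and 8.96 in aliquot 2. With classes read from cells thinned to 2000 UMIs in place of 500 it was 4.89 (3.09 to 8.27). Here and below, that setting keeps only the 1044 cells with 2000 or more UMIs, so it reads fewer and deeper cells. With classes read at 500 UMIs, G2/M cells were 18.3% of the kept cells and carried 23.6% of all UMIs and 66.6% of the Hmgb2 UMIs. In thinned cells the share with an Hmgb2 UMI was 13.4% without cycle transcripts, 21.3% in S and 61.8% in G2/M, and 3 or more Hmgb2 UMIs were seen in 0.211%, 1.65% and 20.9% of cells. The pooled level of 305 CPM in cells without cycle transcripts was below the 736 CPM in barcodes under 200 UMIs, and the part of free RNA in these counts was not tested.

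Hmgb1, the most widely detected of the family here, followed the same order of classes over a narrower range. Cells without cycle transcripts held 835 CPM in aliquot 1 and 582 CPM in aliquot 2, S cells held 980.4 and 885 CPM, and G2/M cells held 1712 and 1315 CPM. The S interval of Hmgb1 overlapped that of the class without cycle transcripts in aliquot 1 but not in aliquot 2. The G2/M to no-cycle ratio was 2.19 (2.02 to 2.37). G2/M cells carried 35.1% of the Hmgb1 UMIs, and cells without cycle transcripts carried 16.0%. Hmgb3 stood at 168 and 128 CPM without cycle transcripts, 205 and 186 CPM in S, and 394 and 305 CPM in G2/M cells. Its G2/M to no-cycle ratio was 2.37 (1.99 to 2.83), and its S interval overlapped that of the class without cycle transcripts in aliquot 1 but not in aliquot 2.

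Among the nucleosome-binding genes, Hmgn1 stood at 147 and 145 CPM without cycle transcripts, 216 and 259 CPM in S, and 279 and 256 CPM in G2/M cells. The S and G2/M classes did not separate for Hmgn1, with a G2/M to S ratio of 1.07 (0.913 to 1.25), and both read above cells without cycle transcripts. In aliquot 1 the S interval, 171 to 268 CPM, overlapped the 111 to 191 CPM of cells without cycle transcripts. In aliquot 2 these intervals lay apart. The G2/M to no-cycle ratio of Hmgn1 was 1.80, and 4.40 (1.50 to 21.4) with classes read at 2000 UMIs. Hmgn2 stood at 18.7 and 30.3 CPM without cycle transcripts, 18.4 and 49.3 CPM in S, and 70.5 and 88.1 CPM in G2/M. Its G2/M to no-cycle ratio of 3.07 (2.09 to 4.61) rests on 111 and 36 UMIs, and with classes read at 2000 UMIs it was 1.23 (0.411 to 6.03), too few UMIs to count as measured. Hmgn3 showed no such order. It stood at 115 and 89.8 CPM without cycle transcripts, 129 and 87.2 CPM in S, and 73.1 and 88.1 CPM in G2/M cells. Its pooled ratio of G2/M to no-cycle cells was 0.866 (0.666 to 1.12), with 0.637 in aliquot 1 and 0.981 in aliquot 2, and 1.54 (0.516 to 7.52) with classes read at 2000 UMIs, where it was not measured by the rule below. Hmga1, the AT-hook member, stood at 26.7 and 73.1 CPM without cycle transcripts, 18.4 and 86.1 CPM in S, and 23.5 and 53.5 CPM in G2/M. Its ratio of G2/M to no-cycle cells was 0.748 (0.526 to 1.06), an interval that includes no difference.

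**Figure D1:**
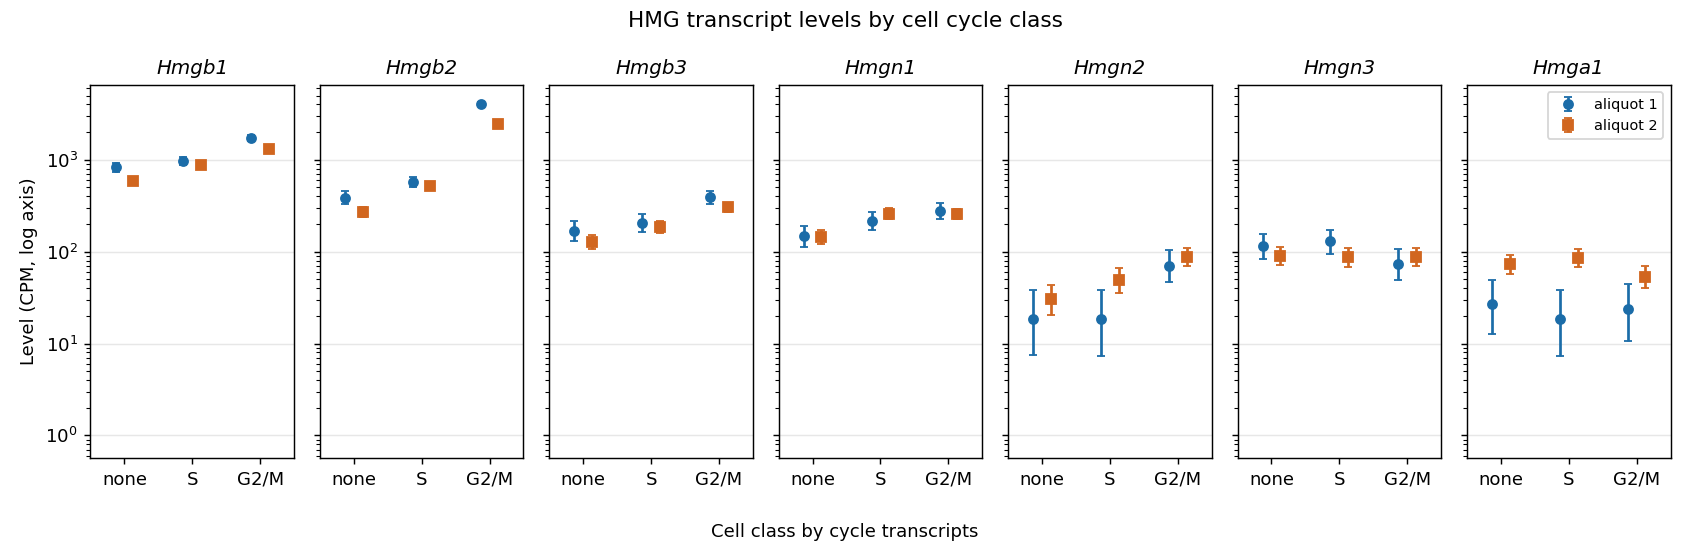
Level of each HMG gene in CPM (log axis) in cells without cycle transcripts (none), S cells and G2/M cells, with aliquot 1 as circles and aliquot 2 as squares, and bars for exact 95% Poisson intervals of counting error. Hmgb2 reaches 4058 and 2449 CPM in G2/M cells from 387 and 273 CPM in cells without cycle transcripts, while Hmgn3 and Hmga1 stay within overlapping bars across the classes of each aliquot.

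Counted over the family, 5 of 7 members were 1.5-fold or more higher in G2/M cells than in cells without cycle transcripts and 0 were 1.5-fold or more lower. Genes were measured if they had at least 10 UMIs, counted or expected, in the smaller of both sets. The S and G2/M list genes were left out of the shares over all genes, here and in the other cycle comparisons. Of the 10475 genes so measured in this comparison, 14.1% were higher by this rule, 20.5% lower, and 34.6% past 1.5-fold in either direction. The median log2 ratio was 1.13 over the members and -0.09 over those 10475 genes. Between S cells and cells without cycle transcripts 2 of 7 members were past 1.5-fold, both higher, beside 12.4% of genes higher, 12.5% lower and 24.9% past in either direction. They were Hmgb2 at 1.77 (1.56 to 2.00) and Hmgn1 at 1.69 (1.41 to 2.03), and neither passed in aliquot 1 alone, at 1.49 and 1.47, while in aliquot 2 alone Hmgb2 at 1.92 and Hmgn1 at 1.79 passed together with Hmgb1 at 1.52 and Hmgn2 at 1.63. Hmgb2 was at 0.959 (0.589 to 1.66) with classes read at 2000 UMIs and at 1.46 with 1 or more list UMIs, and Hmgn1 was at 1.28 (1.07 to 1.53) with another random thinning, so neither call held under every setting. Between G2/M and S cells 4 of 7 members were higher by this rule, beside 9.61% of genes higher, 12.6% lower and 22.2% past in either direction. These were Hmgb2 at 5.39 (4.97 to 5.86), Hmgn2 at 2.08 (1.48 to 2.96), Hmgb3 at 1.72 (1.47 to 2.03) and Hmgb1 at 1.56 (1.45 to 1.68), and Hmgb1 was at 1.49 in aliquot 2 alone. The pooled G2/M to S ratio of Hmga1 was 0.685 (0.483 to 0.968), with 0.621 in aliquot 2 and 1.28 on 9 and 7 UMIs in aliquot 1. That of Hmgn3 was 0.839 (0.644 to 1.09), with 0.567 in aliquot 1 and 1.01 in aliquot 2.

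Depth and granulocyte transcripts moved with the G2/M class. The 14 genes of the granulocyte list summed to 763 and 2323 CPM in the aliquots in cells without cycle transcripts, with 7 and 13 of 14 found, and to 10745 and 4909 CPM in G2/M cells, with all 14 found, and of the 116 cells with 5 or more of these UMIs 48 were in G2/M. In those 116 cells Hmgb2 was at 4911 CPM in aliquot 1 and 1660 CPM in aliquot 2. Without them the G2/M to no-cycle ratio of Hmgb2 was 9.45, of Hmgb1 2.14 and of Hmgn2 2.97, and the same number of members, 5, was higher. The LT-HSC list summed to 4809 CPM without cycle transcripts and 2650 CPM in G2/M, with all 16 of its genes found in each class.

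Graded by the number of G2/M list UMIs in the thinned cell, pooled Hmgb2 was higher at each step of the range, as it was in aliquot 2, while in aliquot 1 it was at 3922 CPM with 3 such UMIs and 3806 CPM with 4 or 5. Pooled over aliquots it was at 389.8 CPM in the 2200 cells with none, 654 CPM at 1 UMI, 1116 CPM at 2, 2341 CPM at 3, 3079 CPM at 4 or 5, and 4600 CPM in the 196 cells with 6 or more. Each interval lay above the one before it. Hmgb1 went from 778 CPM at none to 1373 CPM at 3 and 1739 CPM at 6 or more. Hmgb3 lay between 151 and 231 CPM from none to 3 G2/M UMIs, then at 385 CPM and 468 CPM in the upper 2 sets, so its higher level was in the cells with most mitotic transcripts. Hmgn1 was already at 257 CPM with 2 G2/M UMIs and at 254 CPM with 6 or more. Hmgn2 went from 31.4 CPM at none to 112 CPM at 6 or more.

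Graded by S list UMIs in cells without a G2/M UMI, Hmgb1 went from 653 CPM at none to 775 CPM at 1 and 995 CPM at 4 or more. Hmgb2 was at 305 CPM at none, 290.4 CPM at 1 and 693 CPM at 4 or more, and the sets with 2 and 3 S UMIs read 413 and 465 CPM. Hmgn1 was uneven, at 278 CPM with 2 S UMIs, 118 CPM with 3 and 282 CPM with 4 or more. Within the G2/M class, cells with no S UMI held 2723 CPM of Hmgb2 and cells with 2 or more held 2882 CPM, while Hmgb1 was at 1590 and 1747 CPM in the same sets of aliquot 1 and at 1074 and 1423 CPM in those of aliquot 2. Hmgn1 was at 304 and 278 CPM there in aliquot 1, with overlapping intervals, and at 150.2 and 297 CPM in aliquot 2. Hmgn3 was at 70.2 and 66.6 CPM in aliquot 1, the first on 3 UMIs, and at 167 and 73.5 CPM in aliquot 2, so for Hmgn1 and Hmgn3 the intervals of these sets lay apart in aliquot 2 and overlapped in aliquot 1.

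**Figure D2:**
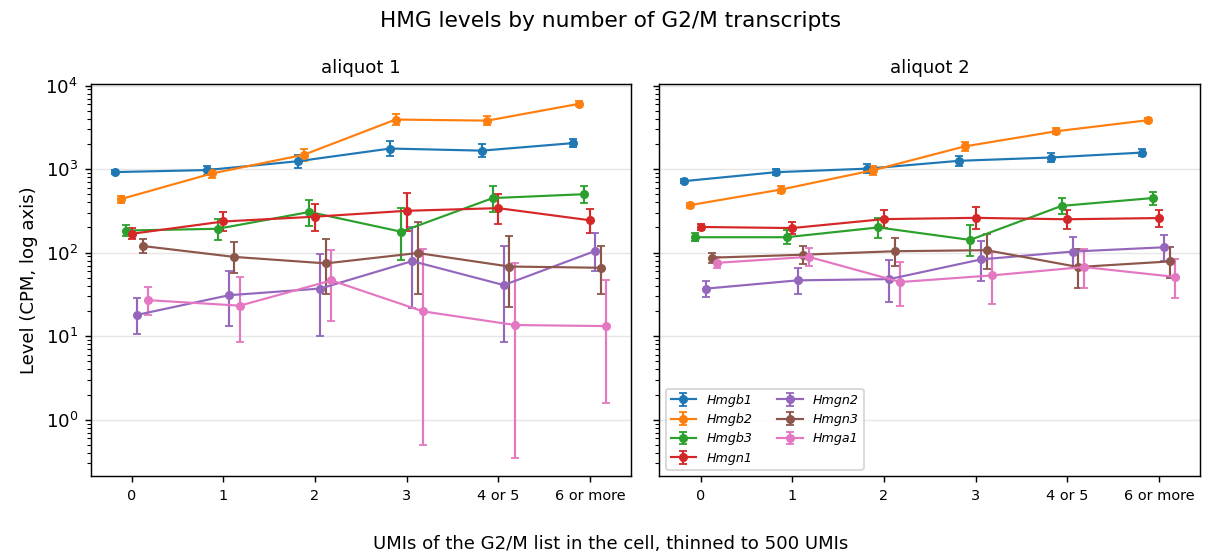
Level of each HMG gene in CPM (log axis) against the number of G2/M list UMIs in the cell after thinning to 500 UMIs, for aliquot 1 (left) and aliquot 2 (right), with exact 95% Poisson intervals. In aliquot 1 Hmgb2 goes from 437 CPM with none to 6048 CPM with 6 or more, and in aliquot 2 from 369.5 to 3849 CPM; lines join sets of cells and carry no fit.

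The shares of cells with Hmgb1 alone, Hmgb2 alone or both differed by class. In thinned cells without cycle transcripts 24.5% held Hmgb1 alone, 9.18% Hmgb2 alone and 4.22% both. In S cells the shares were 27.5%, 14.4% and 6.88%. In G2/M cells 14.9% held Hmgb1 alone, 32.3% Hmgb2 alone and 29.5% both. Hmgb1 without Hmgb2 was thus more frequent than Hmgb2 without Hmgb1 in cells without cycle transcripts and in S cells, and less frequent in G2/M cells. Each gene's own share moved too. In thinned cells Hmgb1 had a UMI in 28.7% without cycle transcripts, 34.4% in S and 44.5% in G2/M. For Hmgb2 these shares were 13.4%, 21.3% and 61.8%. Whether the genes met in cells more often than these shares alone would give was not tested.

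Likeness to other transcripts was read as Pearson correlation of log counts over 1044 cells thinned to 2000 UMIs, centred within each aliquot, among 1987 genes, and it is a description over cells of 1 pool that share their libraries. The genes most like Hmgb2 were Mki67 at 0.542, Top2a at 0.512, Cdca8 at 0.467, H2afz at 0.461 and Cks2 at 0.455. The first 3 of these belong to the G2/M list, H2afz encodes the histone variant H2A.Z and Cks2 a subunit of cyclin-dependent kinases. The gene most like Hmgb1 was its pseudogene Gm21596 at 0.317, then Hmgb2 at 0.292. For Hmgb3 the highest values were Hmgb2 at 0.204 and Ccnb2 at 0.197, and for Hmgn1 they were Stmn1 at 0.164 and Tuba1b at 0.121, which are weak. Outside G2/M, over 768 cells, Hmgb1 and Hmgb2 correlated at 0.153 and Hmgb2 and Hmgb3 at 0.085. Hmgn2, Hmgn3 and Hmga1 had under 200 UMIs in these cells and were not ranked.

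Procr encodes the endothelial protein C receptor, a surface mark of the most primitive stem cells. In the 274 cells with a Procr UMI after thinning Hmgb2 was lower than in the 3128 cells without, at 693 against 1407 CPM in aliquot 1 and 453 against 931 CPM in aliquot 2. The ratio was 0.493 (0.427 to 0.567), and the aliquots gave 0.492 and 0.487. Hmgb3 was at 148 against 242 CPM and 128 against 194 CPM, a ratio of 0.647 (0.482 to 0.853). These 2 of 7 members were 1.5-fold or more lower, beside 12.4% of 7268 genes lower, 11.9% higher and 24.3% past in either direction. Hmgb1 was at 0.775 (0.687 to 0.871), with 1.01 in aliquot 1 and 0.641 in aliquot 2. Hmgn1 at 0.890, Hmgn2 at 0.709, Hmgn3 at 1.12 and Hmga1 at 1.41 had intervals that include 1.

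The cycle classes moved with Procr: 38.0% of Procr cells had no cycle transcripts and 9.12% were in G2/M, against 27.0% and 19.1% of the others. Within cells without cycle transcripts, 104 with and 844 without Procr, Hmgb2 was at 302 and 306 CPM, a ratio of 0.989 (0.704 to 1.36), and 0 of 6 measured members were past 1.5-fold, beside 26.9% of genes. Within S, 36 against 691 cells, Hmgb2 was at 272 and 551 CPM, a ratio of 0.494 (0.268 to 0.834) on 14 UMIs, and was the 1 of 3 measured members past 1.5-fold, beside 37.4% of genes. Within G2/M, 25 against 598 cells, Hmgb2 was at 2192 and 2936 CPM, a ratio of 0.746 (0.608 to 0.908), and 0 of 4 measured members were past 1.5-fold, beside 40.2% of genes. The granulocyte list was at 605 CPM in Procr cells and 3097 CPM in the others, and without cells rich in it Hmgb2 was at 0.545 and Hmgb3 at 0.670, just short of 1.5-fold.

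Gata1 and Klf1 encode transcription factors of the erythroid program. In the 48 cells with a UMI of either after thinning, Hmgb2 was at 2085 against 1336 CPM in aliquot 1 and 1311 against 894 CPM in aliquot 2, a pooled ratio of 1.64 (1.38 to 1.93) with 1.56 and 1.47 in the aliquots. It was the 1 of 4 measured members past 1.5-fold, beside 29.0% of 2178 genes higher, 13.4% lower and 42.4% past in either direction, so the member count is not above the background. Hmgb3 was at 1.48 (0.964 to 2.18), with 1.93 in aliquot 1 and 0.907 in aliquot 2, Hmgb1 at 1237 against 954 CPM, with a ratio between 1.06 and 1.57, and Hmgn1 at 1.25 (0.789 to 1.88), with 0.593 in aliquot 1 and 1.82 in aliquot 2. Of these 48 cells 43.8% were in G2/M, against 17.9% of the others, and 6.25% had no cycle transcripts. The LT-HSC list summed to 1730 CPM in them, with 12 of 16 genes found and Procr, Fgd5, Hoxb5 and Sult1a1 at 0, against 3801 CPM in the others. The granulocyte list was at 3018 CPM in aliquot 1 and 215 CPM in aliquot 2, against 3553 and 2701 CPM, and the part of these lists in the ratios was not tested. Within G2/M, 21 against 602 cells, Hmgb2 was at 2801 and 2914 CPM, a ratio of 0.961 (0.792 to 1.16), and 0 of 4 measured members were past 1.5-fold, beside 35.2% of genes. Within S the 12 such cells held 7 Hmgb2 UMIs, a ratio of 0.655 (0.262 to 1.36). Hmgn3 had 0 UMIs in the 21 G2/M cells against 86.4 CPM in the other G2/M cells, with an upper bound of 1.05 on the ratio. The class without cycle transcripts held only 3 Gata1 or Klf1 cells, too few for any member to be measured.

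GFP is transcribed from the reporter, and 71 cells held a GFP UMI, 3 of them among the 116 cells rich in granulocyte transcripts. A single GFP UMI can also come from free RNA, whose part was not tested, so these cells are described by that UMI and not by genotype. Hmgb2 was at 1319 against 1355 CPM in aliquot 1 and 537 against 909 CPM in aliquot 2, a pooled ratio of 0.646 (0.520 to 0.794) that the 23 GFP cells of aliquot 1 alone did not show, at 0.973. Hmgn3 was at 146 against 91.8 CPM, a ratio of 1.59 (0.963 to 2.48) on 20 UMIs, with 1.65 and 1.62 in the aliquots, but 0.838 (0.271 to 1.97) in cells with 2 or more GFP UMIs, where Hmgb2 was at 0.697 (0.511 to 0.928). Of 6 measured members 1 was higher and 1 lower by 1.5-fold, beside 18.1% of 3428 genes higher, 11.2% lower and 29.3% past in either direction, so GFP cells did not stand out by these counts. Hmgb1 was at 1.16 (0.982 to 1.37), Hmgb3 at 0.753 (0.464 to 1.16), Hmgn1 at 1.000 (0.667 to 1.44) and Hmga1 at 1.50 (0.767 to 2.66), just under the fold. Of the GFP cells 19.7% were in G2/M, 12.7% in S and 33.8% without cycle transcripts, against 18.3%, 21.6% and 27.7% of the other cells. Median depth was 1702 UMIs against 1412, and the granulocyte list was at 591 against 2981 CPM, with Hmgb2 at 0.723 once cells rich in that list were left out. Within cells without cycle transcripts, 24 against 924, Hmgn3 was at 230.4 and 92.3 CPM, a ratio of 2.50 (1.17 to 4.75) on 10 UMIs. It was the 1 of 3 measured members past 1.5-fold, beside 36.7% of genes. Hmgn3 met the minimum of 10 only by the UMIs counted in the GFP cells, where it was high, and not by those expected. Its call was thus set in part by the filter and is no support for a difference. Within G2/M, 14 against 609 cells, Hmgb2 was at 1604 and 2942 CPM, a ratio of 0.545 (0.406 to 0.717), and was the 1 of 4 measured members past the fold, beside 42.6% of genes.

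**Figure D3:**
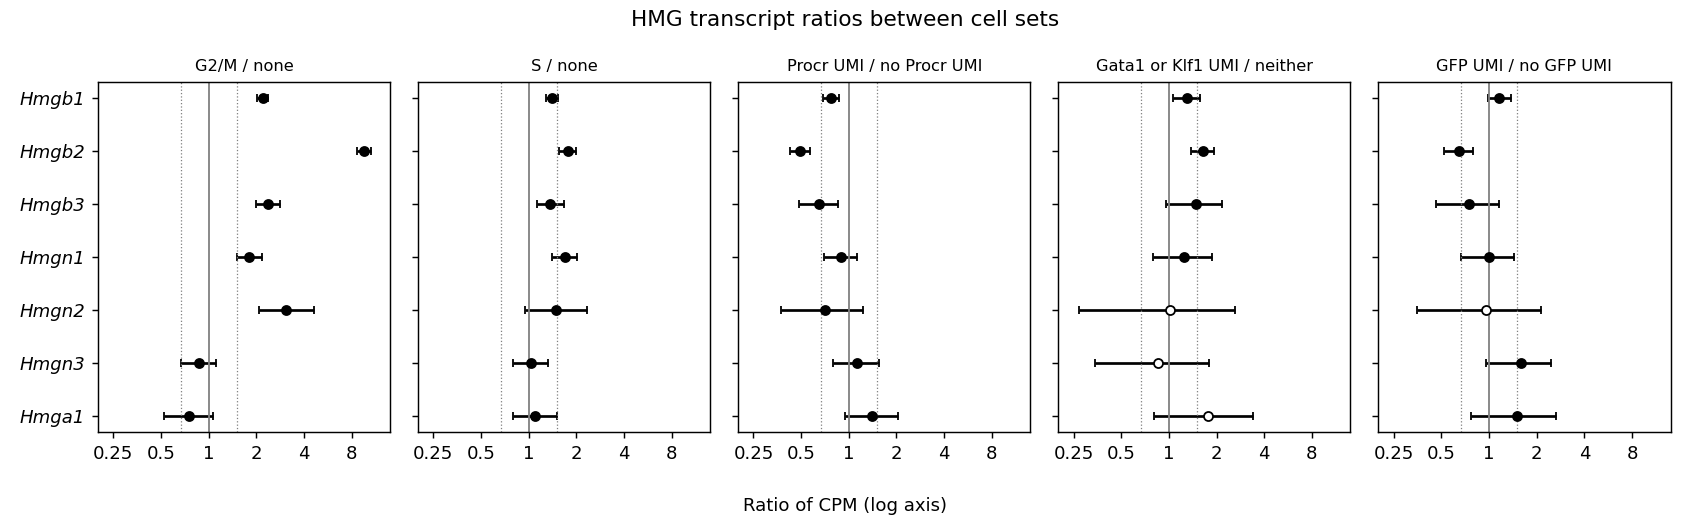
Ratio of CPM (log axis) of each HMG gene between cell sets, with exact 95% intervals of counting error; the dotted lines stand at 1.5-fold in each direction and open circles mark genes with too few UMIs to be measured. Hmgb2 lies at 9.53 for G2/M and at 0.493 for Procr cells, and the intervals of Hmgn3 include 1 in all 5 panels.

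Genes of this family have processed pseudogenes whose reads can be assigned to either copy. Of the 50-base words in annotated Hmgb1 transcripts, 23.5% occur in some other gene, and 40 genes share 100 or more of them. Of these copies, 28 were rows of the tables and 19 had UMIs, 593 in all, or 9.84% of the sum with Hmgb1. Most were in Gm21596, a processed pseudogene on chr2:113919247-113920562, with 475 UMIs and 1014 shared words. Gm21596 was at 41.4 CPM in aliquot 1 and 101 CPM in aliquot 2, the reverse of the order for Hmgb1 itself. Across classes it went with its parent, at 57.0 CPM without cycle transcripts, 71.9 CPM in S and 148 CPM in G2/M, a G2/M to no-cycle ratio of 2.60 (1.98 to 3.43). Gm5518, a further Hmgb1 copy, had 40 UMIs, 31 of them in G2/M cells and 2 in cells without cycle transcripts.

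For Hmgb2 the copies held 185 UMIs, or 3.07% of the sum, and 182 of them were in Gm13237 on chr4:146564453-146565087. Gm13237 went from 10.5 CPM without cycle transcripts to a G2/M level 8.55 times as high (4.90 to 16.1), near the 9.53 of Hmgb2. Hmgn2 was the most divided, since its copies held 78 UMIs, 23.2% of the sum, of which Gm10282, annotated as protein coding, had 46 and Gm10182 had 26. The G2/M to no-cycle ratio of Gm10282 was 1.72 (0.779 to 4.01). Hmgb3 had 6 UMIs in its copy Gm6104, and Hmgn3 shared no 50-base word with another gene. With the UMIs of all copies added to each parent, the G2/M to no-cycle ratio of Hmgb2 was 9.50 and 5 members were again higher.

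**Figure D4:**
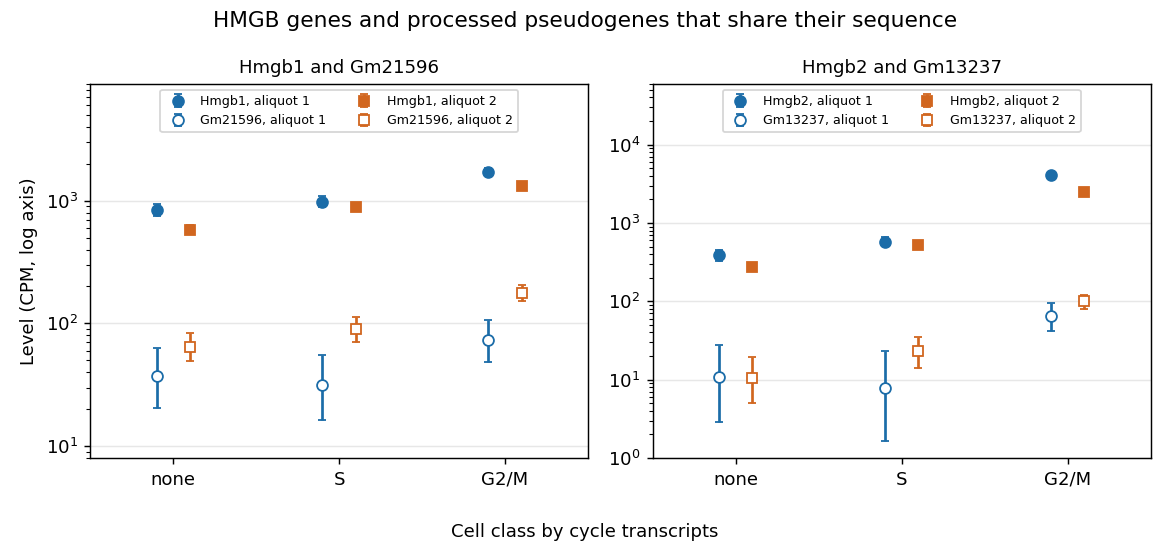
Level in CPM (log axis) of Hmgb1 with the pseudogene Gm21596 (left) and of Hmgb2 with Gm13237 (right) by cell class, for aliquot 1 (circles) and aliquot 2 (squares), with parents filled and pseudogenes open and exact 95% Poisson intervals. Pseudogene and parent are both highest in G2/M cells, and Gm21596 is higher in aliquot 2 where Hmgb1 is lower.

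Genes that work beside the HMG proteins were read from lists kept apart from the members. Of 18 nucleosome chaperones and assembly factors, 11 were 1.5-fold or more higher in G2/M cells than in cells without cycle transcripts and 0 lower. This stands beside the 14.1% and 20.5% of all genes measured outside the S and G2/M lists. The median log2 ratio was 0.67 for the chaperones against -0.09 for those genes. Anp32b, a histone-binding acidic protein, was at 2.02 (1.83 to 2.24), Set at 1.62 (1.47 to 1.79), while Npm1 at 1.04 (0.985 to 1.11) and Ncl at 1.09 (0.994 to 1.19), both nucleolar, were near 1. Of the linker and variant histones 9 of 14 were measured, and 4 were higher, H2afz, H2afx, H2afv and H1fx, and 1 lower. H2afz was at 4.19 (3.78 to 4.64), and H2afy, which encodes macroH2A, was at 1.44 (1.34 to 1.53). H3f3a at 1.25 and H3f3b at 1.25 encode the replication-independent H3.3. The histone counted as lower was the linker histone Hist1h1c at 0.401 (0.294 to 0.542), while H1fx, also a linker histone, was at 4.28 (3.32 to 5.58). H2afx, H2afv, H1fx and Hist1h1c were named after their values were seen. Of other HMG-box and HMG genes 15 were measured, with 2 higher, Ssrp1 and Hmgn5, and 3 lower, Hmga2, Tox and Bbx, all but Ssrp1 named after their values were seen, and these counts are near the shares over all genes. Ssrp1, the HMG-box subunit of the FACT histone chaperone, was at 1.91 (1.66 to 2.21), Pbrm1 and Smarce1 of SWI/SNF complexes at 1.46 and 1.21, and Ubtf of ribosomal DNA at 1.16. Of the genes for cell-surface partners of released HMGB1, 5 of 7 were measured and 2 were lower, 0 higher. Cxcr4 was at 227 against 173 CPM, a ratio of 1.31, and Cd24a at 179 against 259 CPM, a ratio of 0.691 (0.583 to 0.817). Tlr4, 1 of the lower genes, was at 13.5 against 22.5 CPM. The other, Sdc1, named after its value was seen, was at 0.332 on 4 against 12 UMIs. Sdc1 counted as measured only by its 12 UMIs in cells without cycle transcripts, where it was high. Its call was thus set in part by the filter. Between S cells and cells without cycle transcripts the chaperones had 7 of 18 higher and 0 lower, beside 12.4% and 12.5% of genes outside the S and G2/M lists.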

How the data were processed

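Single-cell mRNA was measured in 2 aliquots of 1 pool of sorted mouse bone marrow cells. The authors deposited UMI counts per gene and barcode, not normalized. Per the submitters' processing notes Bowtie 1.1.1, SAMtools 1.3.1, RSEM 1.3.0 and the build GRCm38 were used, with no role or order given there, and the gene annotation, the handling of reads with several matches and the use of strand are not given in the sources used here.

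From the counts, with Python 3.11.15, numpy 2.4.6 and scipy 1.17.1, barcodes with 500 or more UMIs (GFP row left out) and at most 20% mitochondrial UMIs were kept: 1574 with 1640734 UMIs in aliquot 1 and 1828 with 4027333 UMIs in aliquot 2. No doublet caller was run. Cells were thinned to 500 UMIs to set the cycle classes and the Procr, Gata1 and Klf1 sets, and the GFP set used all UMIs. Counts were summed over each set, and the gene or genes that define a Procr, Gata1 or Klf1, or GFP set were left out of the genes counted. In comparisons between cycle classes the S and G2/M list genes were left out of the shares over all genes. CPM have exact Poisson intervals, ratios exact conditional binomial intervals and shares exact binomial (Clopper-Pearson) intervals, all at 95% and for counting error only. A gene was called past 1.5-fold with at least 10 UMIs, counted or expected, in the smaller of both sets. This rule lets a gene pass only by its count in the smaller set where it is high. Hmgn3 in GFP cells without cycle transcripts and Sdc1 in cells without cycle transcripts passed in this way. With 1 pool no test was possible. On simulated counts for G2/M against no-cycle cells, the intervals held the true fold for 96.1% of 9955 unchanged genes. They held it for 99.0% of 100 genes at 2-fold and 95.0% of 100 at 0.5-fold. The simulated sums were Poisson draws, the model behind the intervals, so they check the calculation only and not the spread between cells. Real counts can spread more: in thinned G2/M cells the variance of Hmgb2 was 2.02 times its mean.

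Sequence copies were found as genes sharing 100 or more 50-base words of GENCODE mouse release 21 transcripts, and upstream windows came from RefSeq on GRCm38.p6 for 6 of the 7 members. The members and lists were chosen with earlier results of these data known. All members were named, with any copy named or annotated as such, up to 4 genes of each other list by UMI number, and the 5 genes of highest likeness to a member. Alternatives were the filters, thinning, class rule, scale, copies, depth, granulocyte-rich cells and each aliquot alone.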

Additional observations from a re-analysis of the deposited data

Results flagged for a closer look

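Barcodes outside the kept cells were not part of the comparisons, and they held transcripts of the family. The 7407 barcodes that failed the filters held 544 Hmgb1 UMIs, or 632 CPM (580.3 to 688), and 602 Hmgb2 UMIs, or 699.7 CPM (645 to 758). Both counts are above the 3 counts that a count of 0 allows. The kept cells had 959 CPM of Hmgb1 and 1030 CPM of Hmgb2. These barcodes can hold free RNA, damaged cells or shallow cells, and which of them gave these UMIs was not tested.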

How the results depend on the processing

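Of 593 member ratios recomputed under the alternatives, 545 stayed inside the interval of the reported ratio, 46 fell outside it, and 2 called ratios reversed. Hmgb2 in S against no-cycle cells was 0.959 with classes read from cells thinned to 2000 UMIs, a depth that only 1044 cells reach. Hmgn3 in GFP cells was 0.838 with 2 or more GFP UMIs. The count of members past 1.5-fold between G2/M and no-cycle cells kept within 1.5 times of 5 under every alternative run, and Hmgb2 ranged there from 4.89 to 11.8. Between S and no-cycle cells the reported 2 became 4 with a minimum of 1000 UMIs, 0 with classes at 2000 UMIs (2 members measured), 1 with 1 or more list UMIs, and 0 to 4 with each aliquot left out. Between G2/M and S the reported 4 became 2 with 1 or more list UMIs. For Procr the reported 2 became 1 with per-cell means, without the 5% deepest cells, without granulocyte-rich cells and with another random thinning. For Gata1 or Klf1 the reported 1 became 2 with a minimum of 1000 UMIs, per-cell means, no minimum on UMIs, another thinning, the UMI read in the whole cell, and aliquot 1 alone, so leaving out each aliquot gave 1 to 2. For GFP the reported 2 became 1 with per-cell means and without granulocyte-rich cells, 0 with 2 or more GFP UMIs, and 0 to 2 with each aliquot left out. With no minimum on UMIs, and with the S and G2/M list genes counted, 55.6% of genes were past 1.5-fold between G2/M and no-cycle cells. The cause of these shifts was not tested. Another random thinning put Hmgn1 at 1.28 between S and no-cycle cells. The alternative that adds copies by sequence was chosen after seeing the data. No paired analysis was possible because both libraries are aliquots of 1 pool and form 1 group. Depth limits Hmgn2, Hmgn3 and Hmga1, seen in under 5% of thinned cells.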

Other observations

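Hmgn5 and Hmga2 are family genes outside the 7 and were named after their values were seen. Hmgn5, an HMGN protein with a long acidic tail, was at 57.8 CPM (45.6 to 72.2) in cells without cycle transcripts, 84.7 CPM (69.3 to 102) in S and 147 CPM (127 to 169) in G2/M cells. Its G2/M to no-cycle ratio was 2.55 (1.95 to 3.36), with 1.67 in aliquot 1 and 2.96 in aliquot 2. Hmga2, known in fetal stem cells, had 27 UMIs in cells without cycle transcripts, 26 in S and 14 in G2/M, at 20.3, 20.8 and 10.5 CPM, and a G2/M to no-cycle ratio of 0.517 (0.251 to 1.02), an interval that includes 1.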
